A study of Saccharomyces cerevisiae with 8 samples.

Results

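XH7, a diploid yeast engineered to ferment xylose, was compared with BSGX001, a haploid one, in cells that had xylose as their only sugar. The libraries were taken by their labels, 2 of XH7_X and 2 of BSGX001_X, which are 4 of the 8 RNA sequencing libraries of the series, and every gene counted in them was tested. The remaining libraries, XH7_GX and BSGX001_GX, come from the same strains in a second fermentation, and were used to share the estimate of the spread and to show each strain difference a second time. The X samples were taken at 12 h from bioreactors with 20 g/L xylose. The GX samples were taken at 14 h from bioreactors that began with 20 g/L of each of glucose and xylose, once the glucose was used up. XH7 carries a xylose isomerase gene inserted at PHO13 and at 3 delta sequences, pentose phosphate pathway genes inserted at GRE3, and xylulokinase, and it was evolved on xylose. BSGX001 carries the isomerase gene Ru-XI, xylulokinase, pentose phosphate pathway genes at GRE3 and a deletion of COX4, and it too was evolved on xylose. The study lists its parent, CEN.PK113-5D, as mating type a with a ura3 mutation. Each of XH7 and BSGX001 is a single strain. The labels name CEN.PK113-5D as the parent of both, whereas the study's own strain description gives a diploid isolate from tropical fruit as the parent of XH7 and says that both strains lack PHO13. By that description ploidy, ancestry, COX4 and the evolved changes all differ between the strains, and their shares in a difference cannot be told apart. The replicates were duplicate fermentations.

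Yeast takes up xylose through its hexose transporters, and xylose isomerase, xylulokinase and the pentose phosphate pathway carry the carbon to glycolysis and ethanol. COX4 encodes a subunit of cytochrome c oxidase, complex IV of the respiratory chain, and cells without it cannot respire. In a haploid cell of mating type a, genes for the pheromone response and for recognition of alpha factor are active. In an a/alpha diploid, the repressor a1-alpha2 shuts off the haploid-specific genes and alpha2 with Mcm1 shuts off the a-specific ones.

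The 4 X libraries held 5279864 to 7675099 counts, which is also the range of the series, and 6020 to 6082 of the 6170 genes listed had a count in each. A floor of 3 counts per library stood for 0.391 to 0.568 counts per 1000000 of these totals. Levels are given below as counts per 1000000 after scaling for library composition (CPM), which compare a gene between libraries and not 1 gene with another. RNA per cell was not measured. The first principal component, with 63.6% of the variance, separated the strains, and the second, with 22.8%, separated the stages. The BSGX001_X replicates differed more than the XH7_X ones, with a chi-square per degree of freedom of 37.6, against 7.01 for XH7_X. Reads of both strains were counted on 1 gene set named for CEN.PK113-7D. For a gene of XH7 whose sequence differs from that set, absence, divergence and silence cannot be told apart.

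Of 5921 genes tested, 1568 were higher in XH7_X (26.5% of the genes tested) and 1719 were lower (29.0%) at an adjusted p of 0.05 or less, which is what "passed" means here. A gene was called when it passed and differed by 2-fold or more. There were 919 called genes (15.5%), 367 higher (6.20%) and 552 lower (9.32%), so that 39.9% of the calls were higher. With scaling by library totals alone the calls were 210 higher and 959 lower, 18.0% higher, and the median log2 ratio of all genes moved to −0.31, against −0.03 as reported. Changes given here are relative to the scaling for library composition, and the median was not subtracted. In all 919 called genes both XH7_X values lay on 1 side of both BSGX001_X values, as did those of 79.3% of all genes tested. At 4-fold or more, 77 genes were higher and 143 lower.

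**Figure D1:**
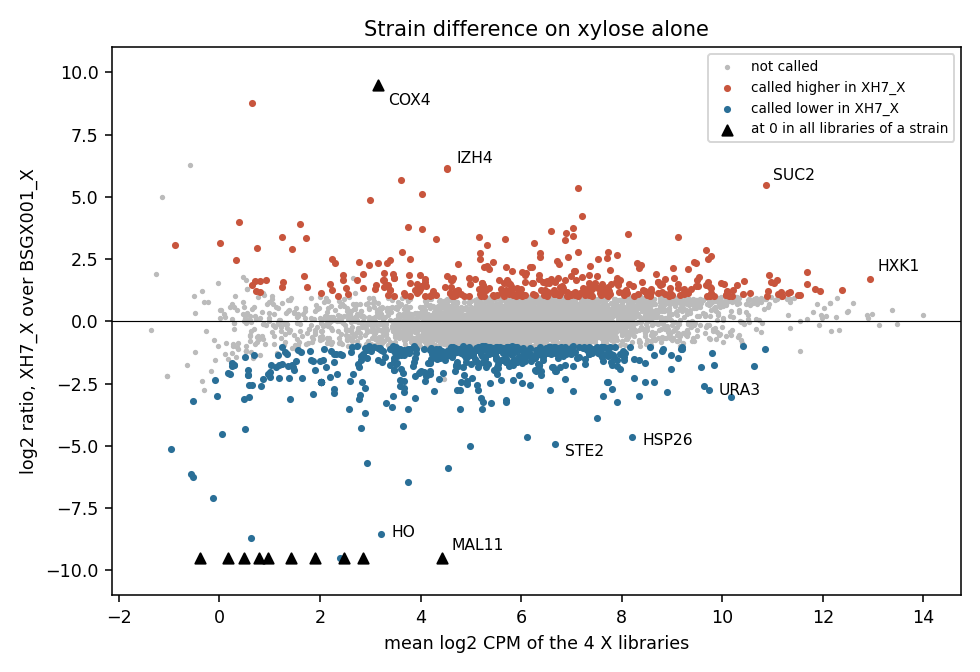
Log2 ratio of XH7_X over BSGX001_X against the mean log2 CPM of the 4 X libraries, 1 point a gene, for the 5921 genes tested. The 367 genes called higher and 552 called lower are coloured, apart from those at 0 in all libraries of a strain, which are black triangles at a fixed height near the axis limits, where UIP3 is drawn as well because its ratio lies beyond them. SUC2 lies far above other genes of its abundance.

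The genes that the labels name as altered were read first, as a check of the labels, and URA3 was read with them. COX4 (chromosome VII, 149704 to 150171; coordinates are on build R64) had 1186 and 1679 counts in XH7_X and 0 in all 4 libraries of BSGX001, the strain labelled with its deletion. XKS1, the yeast xylulokinase gene, had 3759.7 and 4024 CPM in XH7_X, against 1767 and 1693 CPM in BSGX001_X (log2 ratio 1.17 ± 0.13, adjusted p = 9.5e-05). RPE1, ribulose-phosphate epimerase, had 8238 and 8441 CPM in XH7_X, against 4284 and 2750.3 CPM in BSGX001_X (log2 ratio 1.25 ± 0.20, adjusted p = 0.000778). The other genes of the non-oxidative branch that engineers raise did not pass. RKI1, ribose-phosphate isomerase, had 1724 and 1697 CPM in XH7_X and 1761 and 1866 CPM in BSGX001_X, TAL1, transaldolase, had 8085 and 7849 CPM in XH7_X and 6981 and 7650.0 CPM in BSGX001_X, and TKL1, transketolase, had 8814 and 9225 CPM in XH7_X and 7554 and 6992 CPM in BSGX001_X. Their log2 ratios were −0.08 ± 0.11, 0.12 ± 0.13 and 0.31 ± 0.12, the last with an adjusted p of 0.052, so that TKL1 lay close to the limit. It passed with DESeq2 size factors and the DESeq2 Wald test (0.35 each), with a stricter filter or without genes lacking a locus tag (0.31 each) and without BSGX001_X replicate 1 (0.40). PHO13, a phosphatase gene, kept reads in both strains, with 68.5 and 66.7 CPM in XH7_X, against 127 and 136 CPM in BSGX001_X (log2 ratio −0.96 ± 0.11, adjusted p = 0.00011). GRE3, the aldose reductase gene, had 55 and 68.5 CPM in XH7_X and 60.2 and 53.3 CPM in BSGX001_X, and these values overlapped (log2 ratio 0.13 ± 0.13, adjusted p = 0.425). Reads at a gene that a label gives as an insertion site were thus still counted, and the counts cannot show whether they come from a remaining part or a second copy of it. URA3, a common selection marker (chromosome V, 116167 to 116970), was lower, with 322 and 331 CPM in XH7_X, against 2237 and 2204 CPM in BSGX001_X (log2 ratio −2.76 ± 0.14, adjusted p = 1.07e-06). The study lists a plasmid with an isomerase gene and a URA3 marker, but its entry for BSGX001 does not name that plasmid.

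Genes without a single count in 1 strain are given apart from graded differences. Listed were genes with 0 counts in all 4 libraries of a strain and 10 or more in both X libraries of the other. XH7 had 10 such genes and BSGX001 had 1, COX4. The fold for each is a lower bound, set against a floor of 3 counts per library. For COX4 this was at least 540-fold higher in XH7_X. Most of the XH7 genes lie in neighbouring pairs near chromosome ends. MAL11 (chromosome VII, 1073963 to 1075813), a high-affinity maltose transporter, had 0 counts in XH7_X and 14921 and 10030 in BSGX001_X, at least 2447-fold lower. MAL13 (chromosome VII, 1070293 to 1071714), the activator beside it, had 0 against 378 and 365, at least 86.7-fold lower. Both belong to the MAL1 locus. REE1 (chromosome X, 23133 to 23729), which acts on the enolase Eno1, had 0 against 623 and 1087, at least 143-fold lower, and its neighbour YJL218W (chromosome X, 21973 to 22563) had 0 against 36 and 69. NFT1 (chromosome XI, 653080 to 656736) and YKR104W (chromosome XI, 656836 to 657756), next to each other and in other strains parts of 1 transporter gene, had 0 against 173 and 206 for NFT1 and 0 against 77 and 76 for YKR104W. So 3 pairs of neighbours, at MAL1, REE1 and NFT1, make up 6 of the 10. MFA2, a gene for a-factor, is the only cell type gene among them, with 0 against 18 and 10. YMR321C had 0 against 94 and 108 but shares sequence with a near-identical gene, so its reads are uncertain. YGR290W and YGL052W, open reading frames without a locus tag in the reference, had 0 against 1777 and 1110 and 0 against 42 and 23. Overlap with other genes was not checked for such frames. YGR290W is next to MAL11 (YGR289C) by its name, so its reads may be those of MAL11. UIP3, of the DUP240 family, had 0 counts in XH7_X and 748 and 727 in BSGX001_X, but a few counts in the XH7_GX libraries. MAL31, the maltose transporter at another locus, was counted in XH7_X, with 687 and 668 CPM in XH7_X, against 1337 and 905 CPM in BSGX001_X (log2 ratio −0.73 ± 0.18, adjusted p = 0.00799). It did not pass without XH7_X replicate 1 (log2 ratio −0.71), XH7_X replicate 2 (−0.68) or BSGX001_X replicate 1 (−0.38).

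Of 68 gene lists measured, the a-specific and the haploid-specific genes had the medians farthest from 0. All 7 a-specific genes tested were lower in XH7_X, with a median log2 ratio of −5.01 (−4.91 with MFA2 at its bound). So were all 12 genes of the haploid-specific list, with a median of −2.55. That list holds HMRA1, a gene for a1, which a/alpha diploids also use as part of a1-alpha2. The median over all genes tested was −0.03. Shown first are promoter sequences of these genes, the operator pattern of a1-alpha2 and the element to which the pheromone pathway's factor Ste12 binds. The site of alpha2 with Mcm1 was not searched. The sequences were read from the R64 reference, a window of 600 bases before each start codon, and XH7 may differ there. Capitals mark the match.

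The operator pattern of a1-alpha2, TGT and TACATCA with 7 bases of any kind between them, was found on either strand in 2 of the 12 haploid-specific promoters and in 0.383% of 6005 promoters. It lay at chrIV:48598-48626 (plus strand) and chrIV:48430-48458 (minus strand) before HO, and at chrXII:675583-675611 (plus strand) before NEJ1.
HO site 1: taatcgTGTATTTAGTTACATCActtttc
HO site 2: aaatcaTGTTATTATTTACATCAacatat
NEJ1: aatccaTGTAAAAAAATACATCAatcata
The pheromone response element TGAAACA, the letters to which Ste12 binds, was in 7 of 7 a-specific promoters, in 6 of 12 haploid-specific ones and in 14.6% of all. The copies nearest the start codon of STE2 (chrVI:82372-82400, plus), BAR1 (chrIX:322147-322175, plus) and AGA2 (chrVII:437015-437043, plus) read as follows.
STE2: taagtacatgaTGAAACAcatatgaagaa
BAR1: gccagctattcTGAAACAcaccacattat
AGA2: atctgaaggtaTGAAACAgtcccttaatt
A match is a description of these letters and not of binding.

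STE2 (chromosome VI, 82580 to 83875), the receptor for alpha factor, had 17.7 and 19.1 CPM in XH7_X, against 526 and 581 CPM in BSGX001_X (log2 ratio −4.91 ± 0.12, adjusted p = 6.46e-08). BAR1 (chromosome IX, 322342 to 324105), the protease that degrades alpha factor, had 5.33 and 5.5 CPM in XH7_X, against 159.7 and 190.5 CPM in BSGX001_X (log2 ratio −5.01 ± 0.20, adjusted p = 3.66e-07). AGA2, a subunit of a-agglutinin, had 0.64 and 1.2 CPM in XH7_X, against 43.2 and 55.4 CPM in BSGX001_X (log2 ratio −5.67 ± 0.31, adjusted p = 1.77e-06). All 3 were well expressed in both BSGX001_X libraries and low in both XH7_X libraries. STE6, the exporter of a-factor, had 38.8 and 34.4 CPM in XH7_X, against 257 and 242 CPM in BSGX001_X (log2 ratio −2.77 ± 0.11, adjusted p = 3.66e-07). ASG7 was nearer, at a log2 ratio of −1.56 ± 0.32. The pheromone genes themselves were scarcely counted in either strain, MFA1 with 0 counts in XH7_X, against 8 and 12 counts in BSGX001_X.

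HO (chromosome IV, 46271 to 48031), the endonuclease that switches mating type, carries both sites printed above and had 4 and 0 counts in XH7_X, against 1433 and 952 in BSGX001_X. Its log2 ratio of −8.55 ± 0.41 was the lowest among genes with a mean log2 CPM of 3 or more and counts in both strains, and its value in XH7_X rests on those 4 reads. NEJ1, needed for non-homologous end joining, had 4.69 and 4.81 CPM in XH7_X, against 26.6 and 30.9 CPM in BSGX001_X (log2 ratio −2.59 ± 0.18, adjusted p = 6.3e-06). FUS3 (chromosome II, 192451 to 193512), the kinase of the mating pathway, had 2.13 and 0.687 CPM in XH7_X, against 105 and 131 CPM in BSGX001_X (log2 ratio −6.44 ± 0.27, adjusted p = 4.22e-07). The pathway's G protein was lower in all its subunits. GPA1 had 10.9 and 10.8 CPM in XH7_X, against 117 and 130.0 CPM in BSGX001_X (log2 ratio −3.51 ± 0.13, adjusted p = 3.66e-07). STE4 had 14.9 and 18.6 CPM in XH7_X, against 148 and 167 CPM in BSGX001_X (log2 ratio −3.22 ± 0.13, adjusted p = 3.66e-07). STE18 had 2.13 and 3.44 CPM in XH7_X, against 48.6 and 57.3 CPM in BSGX001_X (log2 ratio −4.21 ± 0.20, adjusted p = 8.91e-07). The scaffold STE5 and the arrest factor FAR1 had log2 ratios of −2.51 and −1.62. RDH54, a recombination translocase, had −2.48, AXL1, a protease for a-factor and bud site choice, had −1.65, and HMRA1, whose reads cannot be told from those of the active a1 copy, had 39.7 and 42.8 CPM in XH7_X, against 93.8 and 117 CPM in BSGX001_X (log2 ratio −1.35 ± 0.12, adjusted p = 3.18e-05). AMN1, a cell separation gene, completed the 12 with −1.84 ± 0.17.

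Of the 4 alpha-specific genes tested, 2 were lower and 2 did not pass. STE3, the receptor for a-factor, had 7.04 and 4.98 CPM in XH7_X, against 23.9 and 26.4 CPM in BSGX001_X (log2 ratio −2.08 ± 0.19, adjusted p = 2.86e-05), AFB1, a blocker of a-factor, had 5.97 and 4.47 CPM in XH7_X, against 12.2 and 11.3 CPM in BSGX001_X (log2 ratio −1.19 ± 0.22, adjusted p = 0.00151), and SAG1 and MF(ALPHA)2 did not pass. SAG1, alpha-agglutinin, had 41 and 37.1 CPM in XH7_X and 43.7 and 37.7 CPM in BSGX001_X (log2 ratio −0.06 ± 0.13), and MF(ALPHA)2, a gene for alpha factor, had 3.2 and 3.09 CPM in XH7_X and 4.65 and 4.69 CPM in BSGX001_X (log2 ratio −0.57 ± 0.43). Of 18 pheromone-induced genes, 11 were lower, 2 higher and 5 did not pass, with a median of −0.76. Without XH7_X replicate 2, 7 were lower and none higher, and none was higher without BSGX001_X replicate 1 or by library totals. FUS1, a cell fusion gene, had 3.63 and 6.36 CPM in XH7_X, against 14.1 and 16.3 CPM in BSGX001_X (log2 ratio −1.57 ± 0.24, adjusted p = 0.000558), and SST2, the brake on Gpa1, had 27.7 and 25.8 CPM in XH7_X, against 56.1 and 65 CPM in BSGX001_X (log2 ratio −1.18 ± 0.13, adjusted p = 7.01e-05).

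**Figure D2:**
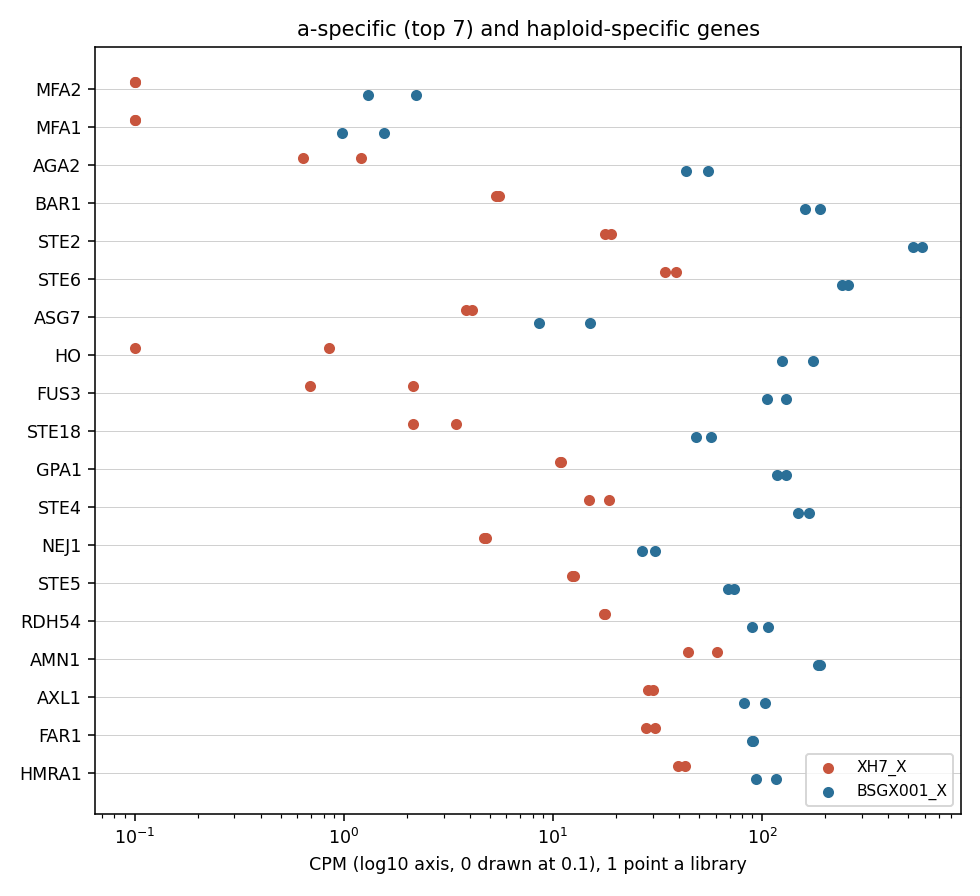
CPM in each X library (log10 axis; values of 0 drawn at 0.1) for the a-specific and haploid-specific genes, 2 XH7_X points above 2 BSGX001_X points for each gene. In all 19 genes both XH7_X points lie left of both BSGX001_X points.

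Meiosis and spore wall genes, which only a/alpha diploids normally use, did not move as 1 group. Of 34, 3 were higher, 14 lower and 17 did not pass. IME1 (chromosome X, 604569 to 605651), the master activator of meiosis, had 108 and 28 CPM in XH7_X, against 7.96 and 5.73 CPM in BSGX001_X (log2 ratio 3.29 ± 0.56, adjusted p = 0.00096). Its XH7_X libraries differed by more than 3-fold, and both exceeded both BSGX001_X libraries. IME2, the kinase it induces, had 26.9 and 18 CPM in XH7_X, against 9.3 and 10.9 CPM in BSGX001_X (log2 ratio 1.14 ± 0.27, adjusted p = 0.00551). RIM4, an RNA-binding repressor of meiotic translation, had 27.1 and 28.3 CPM in XH7_X, against 130.4 and 175 CPM in BSGX001_X (log2 ratio −2.46 ± 0.15, adjusted p = 3.92e-06). SPO11, the endonuclease that starts recombination, had 2.77 and 1.37 CPM in XH7_X, against 16.6 and 36 CPM in BSGX001_X (log2 ratio −3.70 ± 0.49, adjusted p = 0.000238). ZIP2, of the synaptonemal complex, and IME4, the mRNA methyltransferase, had log2 ratios of −1.66 and −1.32. IME1 and IME2 were thus higher, and the other 4 genes named were lower. Whether counting used strand was not given, so antisense reads at ZIP2, IME4 and the others cannot be told from their mRNA.

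Many genes of respiration were lower in XH7_X, the strain in which COX4 was counted. Of 10 complex IV subunits, 6 were lower, 2 higher, COX4 among them, and 2 did not pass. Without XH7_X replicate 2 or BSGX001_X replicate 1, 1 was higher. COX5A had 405 and 433 CPM in XH7_X, against 743 and 696 CPM in BSGX001_X (log2 ratio −0.78 ± 0.12, adjusted p = 0.000428), COX6 had a log2 ratio of −0.68 ± 0.11 and COX7 one of −0.84 ± 0.12. Of 28 complex IV assembly factors, 24 were lower, none was higher and 4 did not pass, with a median of −0.92, and 12 were called. PET117 had 17.5 and 19.4 CPM in XH7_X, against 73.1 and 58.9 CPM in BSGX001_X (log2 ratio −1.83 ± 0.21, adjusted p = 0.00012). SCO1, which delivers copper to the enzyme, had 38.4 and 50.2 CPM in XH7_X, against 143 and 149.7 CPM in BSGX001_X (log2 ratio −1.72 ± 0.18, adjusted p = 6.63e-05), and COX17, the copper chaperone that feeds it, had 23.7 and 36.2 CPM in XH7_X, against 97.2 and 102 CPM in BSGX001_X (log2 ratio −1.72 ± 0.19, adjusted p = 9.5e-05). COA4 had a log2 ratio of −1.80 ± 0.25.

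All 15 ATP synthase genes had negative log2 ratios, 13 of which passed, with a median of −0.52. The count is sensitive to single libraries, with 7 without XH7_X replicate 1 and 8 without BSGX001_X replicate 1. INH1, an inhibitor of the enzyme, had 61.2 and 62.2 CPM in XH7_X, against 127 and 134 CPM in BSGX001_X (log2 ratio −1.08 ± 0.13, adjusted p = 0.00016), and ATP5 had 408 and 414 CPM in XH7_X, against 646 and 679 CPM in BSGX001_X (log2 ratio −0.69 ± 0.11, adjusted p = 0.000592). Of 9 complex III genes, 6 were lower, with a median of −0.38, but 2 passed without XH7_X replicate 1, 3 without XH7_X replicate 2 and 2 without BSGX001_X replicate 1. QCR8 and QCR10 had log2 ratios of −0.82 ± 0.11 and −0.74 ± 0.11. Of 4 complex II genes only SDH2, the iron-sulfur subunit, passed, with 299.9 and 383 CPM in XH7_X, against 1109 and 764 CPM in BSGX001_X (log2 ratio −1.46 ± 0.23, adjusted p = 0.000682). A second one passed without BSGX001_X replicate 2. Of 17 TCA cycle genes, 6 were lower, 1 higher (none without XH7_X replicate 2) and 10 did not pass, and 2 were lower without XH7_X replicate 1, 3 without XH7_X replicate 2 and 11 by library totals. NDE1, the external NADH dehydrogenase, had a log2 ratio of −0.81 ± 0.12. Its list did not move with it. Of 8 cytochrome c and NADH dehydrogenase genes, 4 were lower, 3 higher and 1 did not pass, with a median of −0.08. The CCAAT box, core of the Hap complex site, was in 15 of 15 ATP synthase promoters, 9 of 9 of complex III and 8 of 10 of complex IV, but also in 70.3% of all promoters. Among the Hap genes, HAP3, of that complex, was lower (log2 ratio −0.72 ± 0.12), as were the complex's other subunit genes that passed. HAP1, the heme-responsive activator, was higher (0.62 ± 0.10). Of 12 respiratory regulators, these genes among them, 4 were higher and 5 lower, or 2 and 7 by library totals.

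Mitochondrial and cytosolic ribosomes went opposite ways. Of 77 mitochondrial ribosomal protein genes, 75 were lower in XH7_X and none was higher, with a median of −0.95, and 34 were called. RSM10 had 67.8 and 71.3 CPM in XH7_X, against 272 and 215 CPM in BSGX001_X (log2 ratio −1.81 ± 0.15, adjusted p = 1.57e-05). RSM19 had 34.1 and 37.4 CPM in XH7_X, against 121 and 111 CPM in BSGX001_X (log2 ratio −1.69 ± 0.11, adjusted p = 4.03e-06), MRP2 had a log2 ratio of −1.59 ± 0.13, and EHD3, a protein of the small subunit, had one of −1.99 ± 0.13. Of 127 cytosolic ribosomal protein genes, 126 were higher and 1 did not pass, with a median of 0.85, and 27 were called. RPL7B had 1042 and 1144 CPM in XH7_X, against 287 and 214 CPM in BSGX001_X (log2 ratio 2.12 ± 0.15, adjusted p = 8.05e-06). RPL5, which carries 5S RNA, had 3843 and 3927 CPM in XH7_X, against 1368 and 1094 CPM in BSGX001_X (log2 ratio 1.66 ± 0.14, adjusted p = 1.6e-05), RPL14B had a log2 ratio of 1.57 ± 0.12 and RPS16B one of 1.49 ± 0.12. Many of these genes have a paralog, and reads shared by a pair are uncertain between the members. By library totals the medians were −1.24 for the mitochondrial and 0.57 for the cytosolic genes.

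The genes that make cytosolic ribosomes went the same way as their proteins. Of 76 ribosome biogenesis genes, 66 were higher, none lower and 10 did not pass, with a median of 0.75. NUG1, a GTPase that exports large subunits, had 370.3 and 365 CPM in XH7_X, against 143 and 121 CPM in BSGX001_X (log2 ratio 1.48 ± 0.13, adjusted p = 2.82e-05), and the nucleolar proteins NSR1 and NOP58 had log2 ratios of 1.17 ± 0.15 and 1.12 ± 0.14. Of 20 RNA polymerase I and III genes, 16 were higher and 1, the repressor MAF1 (−0.55 ± 0.11), was lower, with 8 higher by library totals. RPA190, the largest subunit of polymerase I, had 391 and 397 CPM in XH7_X, against 238 and 184 CPM in BSGX001_X (log2 ratio 0.90 ± 0.16, adjusted p = 0.00114). Of 27 translation factors, 22 were higher, with 14 by library totals. GCD11, the gamma subunit of eIF2, had 541 and 542 CPM in XH7_X, against 255 and 232 CPM in BSGX001_X (log2 ratio 1.15 ± 0.12, adjusted p = 5.91e-05), and HEF3, a second elongation factor 3, was the lower one (−0.84 ± 0.15).

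**Figure D3:**
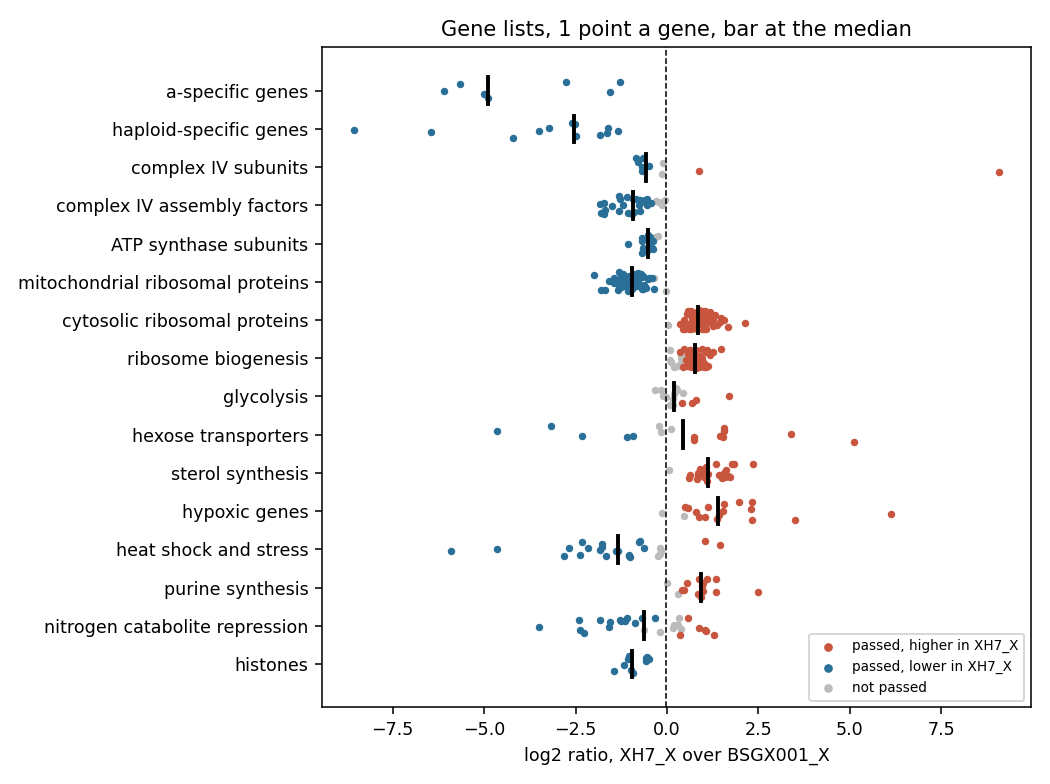
Log2 ratio of XH7_X over BSGX001_X of each tested member of 16 gene lists, 1 point a gene, with the median as a bar and the dashed line at the median of all genes, −0.03. Cytosolic ribosomal proteins lie right of 0 and mitochondrial ones left of it. COX4 and MFA2, at 0 in a strain, are drawn at their bounds.

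Genes of sterol synthesis and of low oxygen were higher in XH7_X. Of 26 sterol genes, 25 were higher and 1, ERG20, did not pass, with a median of 1.11, and 17 were called. ERG10, which makes the first intermediate from acetyl-CoA, had 1585 and 1639.8 CPM in XH7_X, against 309 and 319.8 CPM in BSGX001_X (log2 ratio 2.36 ± 0.18, adjusted p = 1.08e-05). ERG1, squalene epoxidase, had 3315 and 4162 CPM in XH7_X, against 1085 and 994 CPM in BSGX001_X (log2 ratio 1.85 ± 0.14, adjusted p = 1.2e-05). ERG6 and ERG26 had log2 ratios of 1.78 ± 0.14 and 1.72 ± 0.12, and UPC2, the activator of the pathway, had one of 1.66 ± 0.11. Of 18 hypoxic genes, 16 were higher, none lower and 2 did not pass, with a median of 1.40. ANB1 (chromosome X, 524908 to 525381), the anaerobic form of eIF5A, had 199 and 180.0 CPM in XH7_X, against 3.67 and 1.69 CPM in BSGX001_X (log2 ratio 6.12 ± 0.23, adjusted p = 3.66e-07). HEM13 (chromosome IV, 546642 to 547628), coproporphyrinogen oxidase of heme synthesis, had 987 and 919.7 CPM in XH7_X, against 101 and 67.5 CPM in BSGX001_X (log2 ratio 3.50 ± 0.23, adjusted p = 5.61e-06). AAC3, an anaerobic ADP/ATP carrier, had 24.3 and 19.9 CPM in XH7_X, against 5.14 and 3.52 CPM in BSGX001_X (log2 ratio 2.34 ± 0.23, adjusted p = 4.52e-05), and FRD1, fumarate reductase, had 680.4 and 737 CPM in XH7_X, against 148 and 134 CPM in BSGX001_X (log2 ratio 2.33 ± 0.12, adjusted p = 1.45e-06). ANB1, HEM13 and AAC3 are known to be kept low by Rox1 when oxygen and heme are present. ROX1 itself was higher, with 176 and 178 CPM in XH7_X, against 76.4 and 59.3 CPM in BSGX001_X (log2 ratio 1.38 ± 0.20, adjusted p = 0.000341).

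Mannoproteins of the anaerobic cell wall were higher too in 6 cases. DAN1 had 108 and 58.7 CPM in XH7_X, against 1.35 and 1.82 CPM in BSGX001_X (log2 ratio 5.69 ± 0.39, adjusted p = 6.83e-06), and TIR3 had 450.5 and 364 CPM in XH7_X, against 36.8 and 31.9 CPM in BSGX001_X (log2 ratio 3.56 ± 0.30, adjusted p = 1.86e-05). Of 11 seripauperin and mannoprotein genes tested, 6 were higher and 2 lower, and none was lower without XH7_X replicate 2 or without BSGX001_X replicate 2. Most PAU genes have near-identical copies and their split is uncertain. IZH4 (chromosome XV, 126982 to 127920), a membrane protein of the family that acts in zinc and sterol metabolism, had the highest log2 ratio among genes with a mean log2 CPM of 3 or more and counts in both strains, with 202 and 170.4 CPM in XH7_X, against 2.94 and 2.21 CPM in BSGX001_X (log2 ratio 6.16 ± 0.29, adjusted p = 8.32e-07). In lipid synthesis OLE1, the fatty acid desaturase, had 6497 and 6632 CPM in XH7_X, against 1646 and 1696 CPM in BSGX001_X (log2 ratio 1.97 ± 0.22, adjusted p = 9.16e-05), FAA4, an acyl-CoA synthetase, had 1381 and 1273 CPM in XH7_X, against 275 and 346 CPM in BSGX001_X (log2 ratio 2.09 ± 0.19, adjusted p = 3.18e-05), and the carboxylase ACC1 had a log2 ratio of 1.21 ± 0.17. The phospholipid genes PSD1 and CHO1 were lower (−1.30 ± 0.15 and −0.99 ± 0.19). Of the 19 fatty acid and phospholipid genes in all, 7 were higher and 5 lower, or 9 lower by library totals.

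Among genes of sugar use counted in both strains, SUC2 (chromosome IX, 37385 to 38983), invertase, had 12186 and 12947 CPM in XH7_X, against 319 and 239.7 CPM in BSGX001_X (log2 ratio 5.49 ± 0.18, adjusted p = 3.13e-07). It took 1.08% and 1.11% of all counts in the XH7_X libraries, against 0.0340% and 0.0255% in the BSGX001_X libraries. Invertase is known to be made when glucose is scarce. HXK1, a hexokinase under the same repression, had 14054 and 14471 CPM in XH7_X, against 4441 and 4308 CPM in BSGX001_X (log2 ratio 1.71 ± 0.14, adjusted p = 1.54e-05), and HXK2, the isoform used on glucose, had 945 and 863 CPM in XH7_X, against 601 and 445 CPM in BSGX001_X (log2 ratio 0.79 ± 0.15, adjusted p = 0.00168). ZNF1 (chromosome VI, 28232 to 29629), a zinc cluster activator, had 342 and 333 CPM in XH7_X, against 26 and 29.2 CPM in BSGX001_X (log2 ratio 3.61 ± 0.12, adjusted p = 3.13e-07). IMA5, an isomaltase, had 163 and 156 CPM in XH7_X, against 47.7 and 22.5 CPM in BSGX001_X (log2 ratio 2.18 ± 0.26, adjusted p = 0.000131).

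Of 16 hexose transporter and sensor genes, 8 were higher, 5 lower (3 without XH7_X replicate 1) and 3 did not pass. HXT5 (chromosome VIII, 294669 to 296447), used by slowly growing cells, had 17.7 and 10.3 CPM in XH7_X, against 393 and 303 CPM in BSGX001_X (log2 ratio −4.65 ± 0.26, adjusted p = 1.88e-06). HXT8 (chromosome X, 26887 to 28596) had 117 and 117 CPM in XH7_X, against 13.8 and 8.08 CPM in BSGX001_X (log2 ratio 3.41 ± 0.18, adjusted p = 1.61e-06). HXT2 and HXT4, of high affinity, had 504 and 359 CPM in XH7_X, against 234 and 83.1 CPM in BSGX001_X and 121 and 68.7 CPM in XH7_X, against 44.7 and 20.6 CPM in BSGX001_X (log2 ratios 1.44 ± 0.38 and 1.52 ± 0.34). HXT6 and HXT7, which carry xylose and are near-identical, each had a log2 ratio of 0.75 ± 0.13, with 5611 and 6139 CPM in XH7_X, against 3661 and 3334 CPM in BSGX001_X. HXT13 had 121 and 69.7 CPM in XH7_X, against 3.31 and 2.08 CPM in BSGX001_X (log2 ratio 5.12 ± 0.32, adjusted p = 4.03e-06) and HXT15 and HXT16 1.55 ± 0.17 each, but all 3 have near-identical copies. GAL2, the galactose permease, which also carries xylose, had 5.12 and 6.87 CPM in XH7_X, against 12.6 and 13.4 CPM in BSGX001_X (log2 ratio −1.10 ± 0.20, adjusted p = 0.00138). HXT2 did not pass without XH7_X replicate 1 (log2 ratio 1.22). HXT1 was lower (−0.92 ± 0.20). HXT10 and HXT14 passed as lower near the floor, HXT10 not without XH7_X replicate 1 or 2 or BSGX001_X replicate 1 (−1.93, −2.91 and −1.98), and HXT14 not without XH7_X replicate 1 or BSGX001_X replicate 2 (−2.40 and −3.13). HXT14 did not pass with the DESeq2 Wald test (−3.37) either, or with limma on log2(FPKM + 1) (−0.69) or log2(FPKM + 0.1) (−2.50). The transporters thus did not move one way.

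Glycolysis itself differed little. Of 15 genes, 4 were higher, none lower and 11 did not pass, with a median of 0.20 that was −0.09 by library totals, where 2 were higher and 2 lower, and 1 was lower without BSGX001_X replicate 1. The 4 were HXK1, HXK2, the glucokinase gene GLK1, which overlaps another gene, and CDC19, pyruvate kinase. The log2 ratio of CDC19 was 0.41 ± 0.13, and it did not pass by library totals (0.12), with limma on log2 FPKM (0.11 with either pseudocount), or without XH7_X replicate 1 (0.43) or 2 (0.46). PDC1, the main pyruvate decarboxylase, had 8382 and 7782 CPM in XH7_X, against 5687 and 4027 CPM in BSGX001_X (log2 ratio 0.73 ± 0.18, adjusted p = 0.0059). ADH5 and SFA1, alcohol dehydrogenases, had log2 ratios of 1.38 ± 0.21 and 2.21 ± 0.14, whereas ADH4 had 69.7 and 78.2 CPM in XH7_X, against 339 and 830.2 CPM in BSGX001_X (log2 ratio −2.98 ± 0.36, adjusted p = 0.000144). The oxidative branch of the pentose phosphate pathway had 3 of 5 genes lower, among them SOL4 (13.4 and 8.76 CPM in XH7_X, against 47.6 and 98.8 CPM in BSGX001_X; log2 ratio −2.74 ± 0.35) and GND2 (−1.34 ± 0.25), the minor isoforms. NQM1, the second transaldolase, had a log2 ratio of −1.07 ± 0.15. XYL2, the yeast's own xylitol dehydrogenase, had 12.4 and 12.4 CPM in XH7_X, against 33.8 and 35.4 CPM in BSGX001_X (log2 ratio −1.48 ± 0.12, adjusted p = 1.86e-05), and the aldose reductases YDL124W and GCY1 had 162 and 147 CPM in XH7_X, against 627 and 1042 CPM in BSGX001_X and 80.8 and 90.9 CPM in XH7_X, against 270.0 and 286 CPM in BSGX001_X (log2 ratios −2.43 ± 0.24 and −1.69 ± 0.15). DSF1, a mannitol dehydrogenase relative with a near-identical copy, had 1059 and 741 CPM in XH7_X, against 22.2 and 21.6 CPM in BSGX001_X (log2 ratio 5.36 ± 0.21, adjusted p = 3.66e-07).

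Genes around pyruvate and stored carbon were mixed. JEN1, the lactate and pyruvate permease, had 377 and 508 CPM in XH7_X, against 133 and 128 CPM in BSGX001_X (log2 ratio 1.76 ± 0.16, adjusted p = 3.14e-05), PYC1, pyruvate carboxylase, had 3247 and 3763 CPM in XH7_X, against 1221 and 1095 CPM in BSGX001_X (log2 ratio 1.60 ± 0.13, adjusted p = 1.64e-05), and MAE1, malic enzyme, had a log2 ratio of 1.20 ± 0.21. FBP1, of gluconeogenesis, and ACS1, acetyl-CoA synthetase, were lower (−1.16 ± 0.20 and −0.91 ± 0.14). Of 10 glycerol genes, 6 were higher (3 by library totals) and 2 lower (1 without XH7_X replicate 2), with GPP2, glycerol phosphatase, at 218 and 200.1 CPM in XH7_X, against 63.5 and 67.2 CPM in BSGX001_X (log2 ratio 1.68 ± 0.10, adjusted p = 4.03e-06) and DAK2, a dihydroxyacetone kinase, at 84.9 and 87.4 CPM in XH7_X, against 13.8 and 16.3 CPM in BSGX001_X (log2 ratio 2.52 ± 0.11, adjusted p = 7.15e-07). Of 17 glycogen and trehalose genes, 9 were higher and 1, GLG2 (−1.81 ± 0.19), was lower. GAC1, which targets the phosphatase that turns on glycogen synthase, had 273 and 256 CPM in XH7_X, against 62.1 and 69.2 CPM in BSGX001_X (log2 ratio 2.01 ± 0.11, adjusted p = 1.41e-06). Of 18 fatty acid oxidation genes, 10 were higher and 3 lower, but 5 were higher by library totals, 5 without XH7_X replicate 2 and 6 without BSGX001_X replicate 1. YAT2, a carnitine acetyltransferase, had 543 and 569 CPM in XH7_X, against 78.8 and 83.3 CPM in BSGX001_X (log2 ratio 2.78 ± 0.12, adjusted p = 5.21e-07), and CRC1, the carnitine carrier, had 94.3 and 126 CPM in XH7_X, against 21.3 and 27.9 CPM in BSGX001_X (log2 ratio 2.17 ± 0.18, adjusted p = 1.63e-05). FOX2, of the peroxisomal cycle, had a log2 ratio of −1.29 ± 0.18.

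Stress genes were lower in XH7_X. Of 25 heat shock and stress genes, 19 were lower, 2 higher and 4 did not pass, with a median of −1.34, and of 15 hydrophilin and stationary phase genes 9 were lower and 3 higher. The stress element AGGGG, at which Msn2 and Msn4 act, was in 18 of the 25 promoters, in 9 of the 15 and in 39.7% of all. It is shown for the 3 genes that were among the lowest of the list, at chrVI:107054-107082 (minus) before HSP12, chrII:381692-381720 (minus) before HSP26 and chrXV:231914-231942 (plus) before DDR2, with the element in capitals.
HSP12: tttcagatcaagAGGGGgacgaccggaac
HSP26: tttggacgcataAGGGGgagggaataacc
DDR2: tgatgtcccataAGGGGtgagaaaagaca

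HSP12 (chromosome VI, 107256 to 107585), a membrane-protecting hydrophilin, had 4.05 and 2.06 CPM in XH7_X, against 131 and 227 CPM in BSGX001_X (log2 ratio −5.90 ± 0.40, adjusted p = 6.1e-06). HSP26 (chromosome II, 382030 to 382674), a small chaperone, had 92.4 and 38.3 CPM in XH7_X, against 919 and 2344 CPM in BSGX001_X (log2 ratio −4.65 ± 0.51, adjusted p = 8.3e-05), and its libraries spread by more than 2-fold within each strain. DDR2 had 4.91 and 4.81 CPM in XH7_X, against 26 and 37 CPM in BSGX001_X (log2 ratio −2.69 ± 0.24, adjusted p = 2.57e-05). HSP30, of the plasma membrane, had 70.2 and 36.2 CPM in XH7_X, against 225 and 519 CPM in BSGX001_X (log2 ratio −2.82 ± 0.39, adjusted p = 0.000309). The general chaperones went with them, HSP104, the disaggregase, at a log2 ratio of −1.77 ± 0.25, HSP82 at −1.78 ± 0.14, HSP78 at −1.84 ± 0.17 and SSA4 at −2.33 ± 0.21. MSN4 was higher, with 268 and 304 CPM in XH7_X, against 93.3 and 114 CPM in BSGX001_X (log2 ratio 1.46 ± 0.14, adjusted p = 3.54e-05), whereas MSN2 did not pass (−0.25 ± 0.10). Of the stationary phase genes SPG1 had 1.49 and 1.37 CPM in XH7_X, against 31.2 and 25.5 CPM in BSGX001_X (log2 ratio −4.30 ± 0.23, adjusted p = 1.41e-06), GRE1 a log2 ratio of −2.85 ± 0.19, and SPG4 one of −3.08 ± 0.24. FMP45, a membrane protein of that group, had 4.91 and 2.92 CPM in XH7_X, against 44.9 and 43.9 CPM in BSGX001_X (log2 ratio −3.53 ± 0.18, adjusted p = 1.25e-06). MRH1 (chromosome IV, 508147 to 509109), a plasma membrane relative of Hsp30, was lower at a high level, with 54.4 and 41.6 CPM in XH7_X, against 665 and 732 CPM in BSGX001_X (log2 ratio −3.87 ± 0.18, adjusted p = 7.15e-07).

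Many amino acid and purine synthesis genes were higher in XH7_X. The labels give a medium of yeast nitrogen base with ammonium sulfate, and the study's text a synthetic complete medium. Of 9 arginine genes, 6 were higher and none lower, with a median of 0.83. ARG8 had 607 and 756 CPM in XH7_X, against 164 and 146 CPM in BSGX001_X (log2 ratio 2.13 ± 0.13, adjusted p = 4.03e-06) and CPA1 had 1661 and 1758 CPM in XH7_X, against 632 and 555 CPM in BSGX001_X (log2 ratio 1.53 ± 0.12, adjusted p = 1.32e-05). Of 11 branched-chain genes, 8 were higher, among them ILV5 (5487 and 6042 CPM in XH7_X, against 2609 and 2094 CPM in BSGX001_X; log2 ratio 1.29 ± 0.14) and BAT2, the cytosolic transaminase, with 522 and 687 CPM in XH7_X, against 89.5 and 101 CPM in BSGX001_X (log2 ratio 2.67 ± 0.17, adjusted p = 4.49e-06). Of 9 lysine genes 7 were higher, with 4 by library totals, without XH7_X replicate 2 or without BSGX001_X replicate 2, and of 7 histidine genes 4. Of 27 sulfate assimilation and methionine genes, 11 were higher, 2 lower and 14 did not pass, with a median of 0.30, but by library totals 6 were higher and 6 lower, with a median of 0.01. Among 15 aromatic genes 9 were higher, led by ARO4 (1.44 ± 0.19), and 2 were lower. Those 2 are the catabolic genes ARO9 and ARO10, with 8.96 and 11.2 CPM in XH7_X, against 63.7 and 71.9 CPM in BSGX001_X and 20.0 and 14.8 CPM in XH7_X, against 162 and 151 CPM in BSGX001_X (log2 ratios −2.74 ± 0.19 and −3.18 ± 0.24). Of 15 purine genes 13 were higher and none lower, with a median of 0.92. IMD3, which commits IMP to guanine nucleotides, had 1837 and 2165 CPM in XH7_X, against 396 and 317 CPM in BSGX001_X (log2 ratio 2.49 ± 0.15, adjusted p = 3.19e-06), and GUA1, the step after it, had 815 and 775 CPM in XH7_X, against 328 and 298 CPM in BSGX001_X (log2 ratio 1.34 ± 0.14, adjusted p = 6.78e-05). ALT1 (chromosome XII, 318237 to 320015), alanine transaminase, had 1528 and 2120.5 CPM in XH7_X, against 179.9 and 168 CPM in BSGX001_X (log2 ratio 3.39 ± 0.19, adjusted p = 2.41e-06).

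Of the genes for poor nitrogen sources that passed, more were lower than higher. Of 27 genes under nitrogen catabolite repression, 14 were lower, 6 higher and 7 did not pass, with a median of −0.62. The median was −0.34 without BSGX001_X replicate 1, and 11 were lower without XH7_X replicate 2. PUT4, the proline permease, had 9.6 and 7.04 CPM in XH7_X, against 119 and 68.3 CPM in BSGX001_X (log2 ratio −3.51 ± 0.31, adjusted p = 2.57e-05). GAT1, an activator of the group, had 29.4 and 21.6 CPM in XH7_X, against 147 and 114 CPM in BSGX001_X (log2 ratio −2.37 ± 0.18, adjusted p = 1.27e-05), and DAL80 and DAL3 had log2 ratios of −2.27 ± 0.42 and −2.40 ± 0.29 at low counts. GDH2, the NAD-dependent glutamate dehydrogenase, was higher, with 559.9 and 637 CPM in XH7_X, against 229 and 259.5 CPM in BSGX001_X (log2 ratio 1.29 ± 0.12, adjusted p = 4.01e-05). Of 21 amino acid permease genes 7 were higher and 6 lower. DIP5 (chromosome XVI, 41043 to 42869), which takes up glutamate and aspartate, had 398 and 553 CPM in XH7_X, against 33.5 and 38.2 CPM in BSGX001_X (log2 ratio 3.73 ± 0.17, adjusted p = 7.59e-07). AGP1, a broad permease, had 30.1 and 28.5 CPM in XH7_X, against 153 and 111 CPM in BSGX001_X (log2 ratio −2.17 ± 0.16, adjusted p = 8.67e-06). VBA5 (chromosome XI, 658716 to 660464), next to YKR104W, had 0.853 and 2.4 CPM in XH7_X, against 20.9 and 18.9 CPM in BSGX001_X (log2 ratio −3.53 ± 0.26, adjusted p = 1.04e-05).

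Most zinc genes and both copper genes named here were lower, and 8 phosphate genes were higher. Of 10 zinc genes 6 were lower and 2 higher. ZRT1, the high-affinity zinc transporter, had 271 and 409 CPM in XH7_X, against 1347 and 2711 CPM in BSGX001_X (log2 ratio −2.58 ± 0.31, adjusted p = 0.000141), and ZAP1, the activator, had 43.3 and 63.4 CPM in XH7_X, against 128 and 256 CPM in BSGX001_X (log2 ratio −1.84 ± 0.29, adjusted p = 0.000668). CTR1, the copper transporter, had 83 and 105 CPM in XH7_X, against 307 and 918 CPM in BSGX001_X (log2 ratio −2.70 ± 0.41, adjusted p = 0.000505), and CUP2, the copper-sensing activator, had a log2 ratio of −1.55 ± 0.13. BSGX001_X replicate 2 was the higher of its pair for ZRT1, ZAP1 and CTR1. PHO84 (chromosome XIII, 24037 to 25800), the phosphate transporter, had 372 and 482 CPM in XH7_X, against 40.1 and 39.2 CPM in BSGX001_X (log2 ratio 3.43 ± 0.35, adjusted p = 5.8e-05). Of the 16 phosphate genes 8 were higher and 1 lower, and 5 were higher without XH7_X replicate 2 and 3 by library totals. FET4, a low-affinity iron transporter, had 299 and 287 CPM in XH7_X, against 59.7 and 140.4 CPM in BSGX001_X (log2 ratio 1.55 ± 0.30, adjusted p = 0.00198). The neighbours ARR1, ARR2 and ARR3, for arsenite resistance, had log2 ratios of 1.04 ± 0.13, 2.27 ± 0.21 and 1.81 ± 0.15. SNZ1 and SNO1, of vitamin B6 synthesis, had 1997 and 2402 CPM in XH7_X, against 433 and 282 CPM in BSGX001_X and 289.9 and 333 CPM in XH7_X, against 101 and 71.4 CPM in BSGX001_X (log2 ratios 2.62 ± 0.21 and 1.85 ± 0.19), and THI73 and THI20, of thiamine supply, had 2.18 ± 0.23 and 1.69 ± 0.24. Their lists did not move with them. Of 14 vitamin B6 and biotin genes 3 were higher and 5 lower, with a median of −0.69. Of 13 thiamine genes 6 were higher and 4 lower, with a median of −0.03. QDR2, a multidrug and potassium transporter, had 218 and 235 CPM in XH7_X, against 27.7 and 23.3 CPM in BSGX001_X (log2 ratio 3.15 ± 0.12, adjusted p = 3.66e-07).

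Histone genes and part of the cell cycle genes were lower. All 10 histone genes were lower, with a median of −0.95, and 6 without XH7_X replicate 2. HTB2, a gene for histone H2B, had 171 and 110.1 CPM in XH7_X, against 432 and 335 CPM in BSGX001_X (log2 ratio −1.45 ± 0.20, adjusted p = 0.000275). In bulk RNA a smaller share of cells in S phase and less histone RNA per cell cannot be told apart. Of 32 G1/S genes 18 were lower and 4 higher, among these MCM3, a helicase subunit, at 1.15 ± 0.09. CLB6 had 3.2 and 1.03 CPM in XH7_X, against 10.8 and 8.34 CPM in BSGX001_X (log2 ratio −2.24 ± 0.41, adjusted p = 0.00137), and TOS4 had 25.6 and 17 CPM in XH7_X, against 84 and 64.9 CPM in BSGX001_X (log2 ratio −1.82 ± 0.22, adjusted p = 0.000141). Of 20 G2/M genes 9 were lower, but 5 without XH7_X replicate 1, 3 without XH7_X replicate 2 and 5 without BSGX001_X replicate 1. CLB1, a mitotic cyclin, had 44.6 and 40.7 CPM in XH7_X, against 182 and 153 CPM in BSGX001_X (log2 ratio −1.98 ± 0.20, adjusted p = 5.02e-05). CTS1, the chitinase that separates daughters from mothers, had 182 and 162 CPM in XH7_X, against 938 and 905 CPM in BSGX001_X (log2 ratio −2.42 ± 0.14, adjusted p = 2.15e-06), and DSE1 had a log2 ratio of −1.31 ± 0.14. Of 12 daughter separation genes, CTS1 and DSE1 among them, 5 were lower, 2 higher and 5 did not pass, with a median of −0.16. At the cell wall, YGP1 had 101 and 58.6 CPM in XH7_X, against 674 and 827 CPM in BSGX001_X (log2 ratio −3.24 ± 0.25, adjusted p = 1.16e-05), GSC2, a glucan synthase, had 274 and 249 CPM in XH7_X, against 1034 and 947 CPM in BSGX001_X (log2 ratio −1.92 ± 0.13, adjusted p = 5.31e-06), and UTR2, a chitin transglycosylase, was higher, with 831 and 770.4 CPM in XH7_X, against 249 and 174 CPM in BSGX001_X (log2 ratio 1.92 ± 0.16, adjusted p = 1.83e-05). Of 32 proteasome genes 25 were lower, with a median of −0.38, and none was called. Without XH7_X replicate 1, 11 passed as lower, and without XH7_X replicate 2, 10 did, while the medians were −0.33 and −0.35.

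Several of the largest differences were in genes with no known role in these pathways. INA1 had 677 and 606 CPM in XH7_X, against 40.9 and 28.3 CPM in BSGX001_X (log2 ratio 4.21 ± 0.19, adjusted p = 7.15e-07). YDL241W had 50.5 and 64.1 CPM in XH7_X, against 4.77 and 3.91 CPM in BSGX001_X (log2 ratio 3.72 ± 0.24, adjusted p = 5.22e-06), and YJL213W had 145 and 172 CPM in XH7_X, against 14.1 and 18.4 CPM in BSGX001_X (log2 ratio 3.29 ± 0.17, adjusted p = 1.25e-06). YPR145C-A had 84.9 and 25.8 CPM in XH7_X, against 5.39 and 2.35 CPM in BSGX001_X (log2 ratio 3.80 ± 0.56, adjusted p = 0.000421), with a spread of more than 3-fold within XH7_X. ICS2 was lower, with 2.77 and 3.26 CPM in XH7_X, against 26.4 and 32.6 CPM in BSGX001_X (log2 ratio −3.27 ± 0.20, adjusted p = 4.03e-06). YOR387C and YPR123C were lower too, but BSGX001_X replicate 2 carried most of their reads, with 8.57 and 80.8 CPM for YOR387C and 76.5 and 200.0 CPM for YPR123C in the BSGX001_X libraries. YPR123C is next to CTR1 (YPR124W) by its name, so its reads may be those of CTR1, for which replicate 2 was also the higher. YOR387C did not pass without XH7_X replicate 1 (log2 ratio −3.27) or 2 (−3.58).

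The differences were not spread evenly along the genome. The left arm of chromosome V had a median log2 ratio of 0.57 over 72 genes, whereas the medians of the 31 other arms ran from −0.23 to 0.12. On that arm 43 genes were higher and 4 lower, and 59 of 72 (81.9%) had a ratio above 0, against 47.5% of the 5394 genes on other arms. The median was 0.54 at the GX stage, where the other arms ran from −0.18 to 0.15. Windows of 25 kb from the left end had medians of 1.94, 0.75, 0.89 and 0.66, then 0.18 and 0.22, and 0.57 across the centromere. Single windows of the right arm were as high, with 0.66 from 175 to 200 kb and 0.69 from 275 to 300 kb. The window from 200 to 225 kb had −0.11, and the right arm as a whole had 0.11 over 197 genes. Next to the end lie DLD3, DSF1, HXT13, YEL068C and YEL067C, a run of 5 neighbours called higher (chromosome V, 16355 to 17845 for the first), and farther in UTR2, CYC7 and UTR4. CYC7, the hypoxic cytochrome c, had 212 and 267 CPM in XH7_X, against 44.9 and 51.7 CPM in BSGX001_X (log2 ratio 2.31 ± 0.15, adjusted p = 4.49e-06). GCN4, the activator of amino acid synthesis genes, lies on the arm too, with 4184 and 4486 CPM in XH7_X, against 2211 and 1931 CPM in BSGX001_X (log2 ratio 1.07 ± 0.12, adjusted p = 0.000117). URA3, whose reads in BSGX001 may come from a marker and not from this arm, was the one gene called lower there. The number of copies of the arm in each strain was not measured. Within 30 kb of a chromosome end, 75 of 250 genes were called (30.0%), against 14.2% of 5216 genes farther in. Other runs were IMA5, HXT8, YJL213W and OPT1, all higher and next to REE1, and VEL1, MNT2, ADH4 and ZRT1, all lower, at the left end of chromosome VII. Of the last run VEL1 did not pass without XH7_X replicate 1 (log2 ratio −2.57) or 2 (−2.18) or without BSGX001_X replicate 2 (−0.29).

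**Figure D4:**
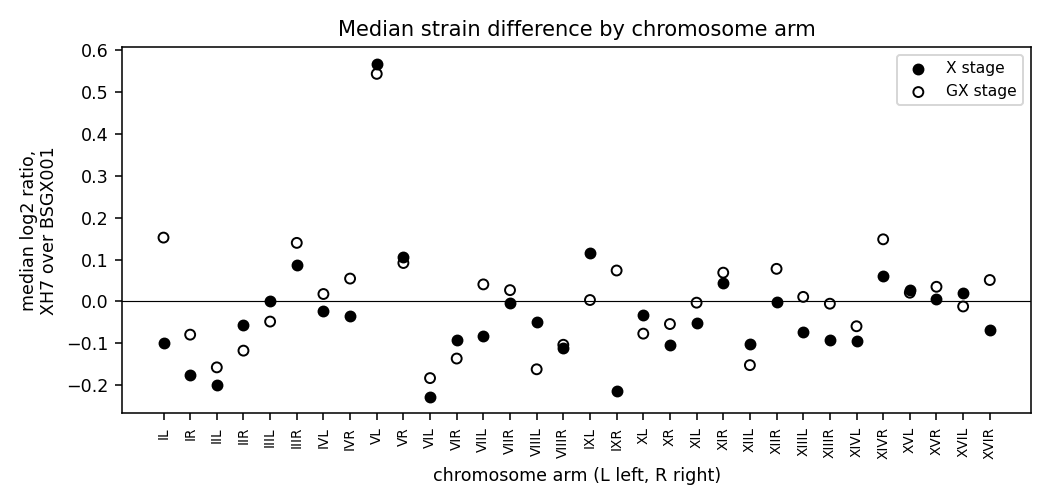
Median log2 ratio of XH7 over BSGX001 for the genes of each of the 32 chromosome arms, at the X stage (filled) and the GX stage (open). The left arm of chromosome V stands at 0.57 and 0.54, and the other arms lie between −0.23 and 0.15.

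The same strains were also compared at the GX stage, in libraries that are not part of the X contrast but share its estimate of the spread. There 1422 genes were called (24.0%), 642 higher and 780 lower. Of the 919 genes called on xylose alone, 561 (61.0%) were called at the GX stage in the same direction, which is 39.5% of the GX calls, and 13 in the opposite one. The interaction, the X difference minus the GX difference, was called for 684 genes (11.6%), of which 235 were among the 919. Side by side, the a-specific genes had medians of −5.01 at X and −4.58 at GX, and the haploid-specific ones −2.55 at X and −2.96 at GX. Cytosolic ribosomal proteins had 0.85 at X and 0.84 at GX. Mitochondrial ribosomal proteins had −0.95 at X, against 0.16 at GX. Arginine synthesis had 0.83 at X, against −0.91 at GX, and fatty acid oxidation 0.54 at X, against −1.25 at GX. The X median of fatty acid oxidation was 0.21 without XH7_X replicate 2 and 0.25 by library totals. Heat shock genes had −1.34 at X and −2.42 at GX. The single genes that changed sides with a call in both stages include AGP1 (1.06 at GX), VBA5 (2.40), IME1 (−1.76) and YPR145C-A (−2.27).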

How the data were processed

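Gene expression was measured by poly(A) RNA sequencing of 8 libraries, 2 duplicate fermentations in each of XH7_X, BSGX001_X, XH7_GX and BSGX001_GX. The authors deposited 1 table per library with an expected count and an FPKM value (fragments per kilobase and per 1000000 fragments) for each gene. The submitters' processing notes name build R64. The aligner, the counting method and whether it used strand were not given in the sources used here. Tables of the authors' own comparisons between stages hold mean FPKM, log2 ratios and probabilities, and were not used. Per library, 4 lines held no values, and those genes were not analysed here.

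The deposited expected counts were rounded to whole numbers and fitted for all 4 groups in 1 model with edgeR 4.0.16 (R 4.3.3), TMM scaling (factors 0.857 to 1.08), a minimum count of 10 in filterByExpr and the quasi-likelihood F test, with Benjamini-Hochberg adjustment over the 5921 genes tested. The contrast was XH7_X minus BSGX001_X, and values after ± are standard errors of the log2 ratio. A test on the 4 X libraries alone, DESeq2 1.42.0, limma 3.58.1 on log2 FPKM, other scalings, filters and definitions of 0 served as alternatives. Levels are TMM-scaled CPM. Labels do not say that the duplicates came from separate inocula, so p-values cover only how these duplicates vary, which may be technical. Floors cover counting error only. In data simulated for XH7_X over BSGX001_X on 5903 genes, all of 67 genes changed 4-fold and 0.123% of 5703 unchanged genes passed. The changed genes were drawn from well-counted genes only. All other genes were given the same mean in both strains, whereas 55.5% of genes passed in the real contrast. The rates thus do not cover an error of scaling.

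Gene IDs were matched to the R64 annotation by locus tag (5591 of 6170), and the 579 others held 3.04% of counts. Near-identical copies (81 genes) were found with BLAST+ 2.17.0 at 95% identity, and 116 genes overlap another. Promoters of 600 bases before the start codon were read from the RefSeq R64 genome. The genes and lists were chosen with earlier results of these data known. The text names altered and cell type genes, the 15 largest calls in each direction at a mean log2 CPM of 3 or more without a near-identical copy, genes at 0 in a strain, up to 4 passed members a direction in each list, and neighbours in runs of 3 or more. Regulators, runs near a chromosome end and single genes outside that rule were named after their values were seen.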

Additional observations from a re-analysis of the deposited data

Results flagged for a closer look

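For the genes below, the strain difference on xylose alone was not the same as that after glucose was used up. What set them apart is the interaction in the edgeR fit, the log2 ratio of XH7 over BSGX001 at the X stage minus that at the GX stage, where it was 2-fold or larger with an adjusted p no higher than 0.05. This was so for 68 of the genes named in the text, 50 with a positive and 18 with a negative value, and for 11.6% of all genes tested. Each value is that interaction on the log2 scale. Each stage has 2 libraries a strain, and no explanation was tested.

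The heat shock and stationary phase genes had positive values, which here means that their strain difference was less negative on xylose alone. HSP26 stood at 4.97, HSP30 at 4.89, SPG1 at 3.39, DDR2 at 3.19, GRE1 at 2.71, HSP104 at 2.23, SPG4 at 1.33, YGP1 at 1.31, HSP82 at 1.29 and HSP78 at 1.20. The carbon genes SOL4, GND2, NQM1, GLG2, GAC1, GCY1, SUC2, HXK1, IMA5, MAL31 and GAL2 stood at 1.89, 2.30, 1.45, 1.29, 1.49, 1.06, 1.31, 1.06, 2.56, 1.05 and 1.66. For genes of fat and acetate use the values were 3.03 for CRC1, 1.60 for YAT2, 1.94 for FOX2, 2.08 for ACS1 and 1.00 for DLD3, the D-lactate dehydrogenase gene, but −3.98 for FBP1.

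Biosynthesis genes also had positive values, 3.04 for ARG8, 1.59 for CPA1, 1.68 for ILV5, 1.14 for ARO4 and 1.06 for IMD3. So did hypoxic genes, with HEM13 at 1.54, ANB1 at 1.52, TIR3 at 1.58, FRD1 at 1.29 and CYC7 at 1.13, whereas OLE1 was at −1.02. Among genes of nutrient uptake PHO84 stood at 2.62, FET4 at 1.48, ZAP1 at 1.41 and DIP5 at 1.02, against −3.24 for AGP1, −1.65 for PUT4 and −5.93 for VBA5. Genes of cell type and meiosis had 5.05 for IME1, 1.23 for NEJ1, 1.18 for AMN1 and 1.05 for IME4. Those of the cell cycle had 1.11 for TOS4, 1.06 for HTB2 and −1.38 for CLB1, and the wall gene GSC2 had −1.44.

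The HXT genes had negative values, −4.47 for HXT14, −2.44 for HXT13, −2.13 for HXT2 and −2.11 each for HXT15 and HXT16, as had DSF1 at −2.16 and INA1 at −1.74. HXT13, HXT15, HXT16 and DSF1 have near-identical copies, and HXT14 was near the floor on xylose alone. The mitochondrial genes COX17, MRP2 and RSM19 had −1.60, −1.39 and −1.21. ATG19 had 1.00 and ATO3 1.06. Among genes of unknown role YPR145C-A had 6.07, ICS2 1.60 and YEL067C −1.23.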

How the results depend on the processing

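As reported, 367 genes were called higher in XH7_X and 552 lower. The counts were 210 higher and 959 lower by library totals, 200 and 928 with limma on log2(FPKM + 1), and 205 and 977 with limma on log2(FPKM + 0.1), and 762 of the 919 called genes were also called by library totals. A fold limit of 1.5 gave 991 higher and 1143 lower, and one of 4 gave 77 and 143. Leaving out 1 X library gave 367 to 501 higher and 493 to 538 lower. The other settings (DESeq2 size factors and its Wald test, upper quartile scaling, no filter or a stricter one, the 4 X libraries alone, removal of genes at 0, of near-identical copies and overlaps or of genes without a locus tag, and an adjusted p of 0.01) stayed within 1.5 times the reported counts. The labels number the replicates alike in all groups, and the deviations of same-numbered X samples correlated at 0.03, so the numbers were not taken as a pairing. With a replicate block 366 genes were called higher and 547 lower, 907 of them among the 919. Genes at 0 in XH7 numbered 10, or 13 on the X libraries only, 15 at 3 counts or fewer per library and 7 with a minimum of 50 counts in BSGX001. Genes at 0 in BSGX001 numbered 1, or 2 on the X libraries only and 3 at 3 counts or fewer. Of 215 genes named and tested, 203 stayed on their side of the threshold in all settings and 12 did not in at least 1. No gene changed sign where it passed in the reported or the other setting. Sign changes of genes that passed in neither were not counted. GLK1 did not pass by library totals (0.41), and MSN2 (−0.54), RKI1 (−0.37) and SAG1 (−0.35) did. Among 68 lists, 17 had a median that changed sign under a scaling or without a library, 10 of them by library totals. Depth limited the low genes, since 3 counts in a library stood for 0.391 to 0.568 counts per 1000000. In simulated data with 2 libraries a group, the changed genes were drawn from those with a mean of 50 or more counts. Of genes changed 2-fold 92.5% passed and 50.7% were called, and of those changed 1.5-fold 51.5% passed. Differences of the smaller size can thus go undetected, and the rates do not cover low genes or an error of scaling.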

Other observations

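Some lists not described above also held members that passed, and their values are given here without explanation. Of 21 multidrug transporter genes, 9 were higher in XH7_X and 3 lower, with 4 higher and 6 lower by library totals, 5 higher without XH7_X replicate 2 and 1 lower without it. AUS1, a sterol importer of anaerobic cells, had 129.7 and 126 CPM in XH7_X, against 40.9 and 47.2 CPM in BSGX001_X (log2 ratio 1.54 ± 0.14, adjusted p = 3.18e-05). AQR1, an exporter of amino acids and short acids, had 121 and 112 CPM in XH7_X, against 41.1 and 36.7 CPM in BSGX001_X (log2 ratio 1.58 ± 0.12, adjusted p = 1.34e-05), and PDR12, the exporter of weak acids, had a log2 ratio of 0.95 ± 0.12. Of 13 genes of the retrograde response, which answers a loss of mitochondrial function, 7 were higher and 3 lower, with 4 higher and 6 lower by library totals. Without XH7_X replicate 1 or without BSGX001_X replicate 2, 1 was lower. CIT2, peroxisomal citrate synthase and its usual reporter, had 1317 and 1401 CPM in XH7_X, against 686 and 887 CPM in BSGX001_X (log2 ratio 0.79 ± 0.15, adjusted p = 0.00198), and ATO3, an ammonium exporter, had a log2 ratio of 0.97 ± 0.15. IDH1, of mitochondrial isocitrate dehydrogenase, was lower, with 287 and 294 CPM in XH7_X, against 485 and 515 CPM in BSGX001_X (log2 ratio −0.78 ± 0.15, adjusted p = 0.00195).

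Of 21 autophagy genes, 8 were lower and 1 higher, but 16 were lower by library totals and 5 without XH7_X replicate 1, XH7_X replicate 2 or BSGX001_X replicate 2. ATG19, the receptor of the vacuole-targeting pathway, had 91.7 and 89.8 CPM in XH7_X, against 228 and 295 CPM in BSGX001_X (log2 ratio −1.53 ± 0.13, adjusted p = 2.41e-05). Of 9 ion pump genes, 6 were lower and none higher, and 3 were lower without XH7_X replicate 1. PMA1, the proton pump of the plasma membrane, had 1041 and 951 CPM in XH7_X, against 1829 and 1799 CPM in BSGX001_X (log2 ratio −0.86 ± 0.13, adjusted p = 0.000516). Of 24 genes of the iron regulon, 7 were higher and 2 lower. Single libraries decided that count, with 4 higher without XH7_X replicate 1, 4 higher and 7 lower without BSGX001_X replicate 1, and 12 higher without BSGX001_X replicate 2. AFT1, the iron-responsive activator, had 182 and 165 CPM in XH7_X, against 79.6 and 98.8 CPM in BSGX001_X (log2 ratio 0.96 ± 0.13, adjusted p = 0.000275). CRS5, a metallothionein, was lower, with 14.7 and 11.2 CPM in XH7_X, against 49.9 and 51.3 CPM in BSGX001_X (log2 ratio −1.98 ± 0.14, adjusted p = 8.99e-06).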
